A study of Homo sapiens with 8 samples.

Results

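The zinc finger genes of chromosome 19 form a large group of related genes, and 193 of them were listed in SQ20B cells. They were taken as all genes on chromosome 19 with a symbol of ZNF followed by a number, out of 14528 named genes, and were listed with 307 transcripts, of which 292 were coding and 15 noncoding. SQ20B is an established human cell line from a squamous cell carcinoma of the head and neck. Cells in normoxia were compared with cells held in 0.5% oxygen for 16 h, which is termed hypoxia here, with 4 biological replicates in each group and no other treatment or genetic change. Poly(A)-selected RNA was sequenced, and the deposited table gives for each transcript 1 FPKM value per condition, pooled over the replicates. FPKM counts sequenced fragments relative to transcript length and library size. Values of single replicates were not analysed here, so every difference is a description of 1 pooled value against another, with no error, no interval and no test. The read counts behind these values were not analysed here either.

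Most of these genes encode C2H2 zinc finger proteins, in which a pair of cysteines and a pair of histidines hold a zinc ion in each finger and a row of fingers reads a stretch of DNA. Many also carry a KRAB domain near the start of the protein, which recruits TRIM28 (KAP1) and through it SETDB1, HP1 proteins and histone deacetylases, and so silences the bound site. The genes arose by repeated tandem duplication, lie in clusters on chromosome 19, and are known for binding endogenous retroviruses and other transposable elements.

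The fingers of the genes described most below are shown because the family shares this unit, with bases that vary from gene to gene. Each line gives, from the coding strand of hg19, the first finger of the canonical form that is followed by the linker typical of the family. The linker is included at the end of the line, and capitals mark the codons of the cysteines and histidines that bind zinc.
ZNF841, chr19:52570019-52570096: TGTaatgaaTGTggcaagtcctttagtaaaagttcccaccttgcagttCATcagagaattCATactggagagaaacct
ZNF616, chr19:52619529-52619606: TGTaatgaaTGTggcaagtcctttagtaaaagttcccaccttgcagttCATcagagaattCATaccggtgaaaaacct
ZNF836, chr19:52660033-52660110: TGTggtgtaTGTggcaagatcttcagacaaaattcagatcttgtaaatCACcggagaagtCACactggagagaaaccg
ZNF160, chr19:53572851-53572928: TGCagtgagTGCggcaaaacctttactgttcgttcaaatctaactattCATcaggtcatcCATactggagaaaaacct
ZNF146, chr19:36727562-36727639: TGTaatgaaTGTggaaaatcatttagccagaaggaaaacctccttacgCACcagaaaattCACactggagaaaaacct
ZNF121, chr19:9677276-9677353: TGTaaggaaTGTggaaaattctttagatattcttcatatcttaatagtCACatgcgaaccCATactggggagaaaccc
ZNF587B, chr19:58353780-58353857: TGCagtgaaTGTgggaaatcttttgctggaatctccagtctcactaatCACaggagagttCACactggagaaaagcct

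All 7 lines span 78 bases because the search took a finger and linker of fixed length. Those of ZNF841 and ZNF616, which lie next to each other, differed at 3 bases, all in the linker after the last capitals. Those of ZNF616 and ZNF836, the next pair along the chromosome, differed at 23. The fingers of ZNF836 and ZNF841 differed at 20, and those of ZNF841 and ZNF160, which are not next to each other, at 23. The fingers of ZNF146 and ZNF121, the most abundant members, differed at 28.

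Differences are given as log2((hypoxia FPKM + 0.1)/(normoxia FPKM + 0.1)) of the FPKM summed over a gene's transcripts. The added 0.1 understates differences of genes with low FPKM. A gene was tested, in the sense of being compared here, where the average of its normoxia and hypoxia FPKM reached 0.5, which kept 167 of the 193 members, 1 of them only through its value in hypoxia, and 12106 of all named genes. The 26 members left out had means between 0.106 and 0.441 FPKM. Among them 9 were lower and 17 higher in hypoxia.

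The zinc finger genes as a group differed little between normoxia and hypoxia. Their median log2 difference was -0.04, against -0.07 for all genes tested, and 91 of the 167 (54.5%) were lower in hypoxia, against 56.4% of all genes. The quartiles of the members lay at -0.27 and 0.22, an interquartile range of 0.49, while that of all genes was 0.60. In a bulk culture, fewer cells expressing a gene and less RNA per cell cannot be told apart. A difference within 1.2-fold was found for 82 members (49.1%), against 43.2% of all genes. Of the members, 8 (4.79%) were lower in hypoxia by at least 1.5-fold, beside 11.2% of all genes tested, and 12 members (7.19%) were higher by at least that much, beside 9.95%. At 2-fold, 0 members were lower and 1 was higher, beside 2.62% and 3.21% of all genes.

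The split of members past 1.5-fold depended on how the columns were scaled. The FPKM columns summed to 536005 in normoxia and 458431 in hypoxia, and giving both the same sum left 1 member lower and 29 higher, beside 4.99% and 18.6% of all genes, with a median of 0.18 where that of all genes was 0.15. Centring on the median of all genes gave 7 lower and 18 higher, beside 8.76% and 12.4% of all genes, and a median of 0.02. Quantile normalization gave 10 lower and 8 higher, beside 9.72% and 10.0% of all genes, and a median of -0.08. The sign of the group's median therefore changed with the scaling, while it stayed near that of all genes.

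The 223 ZNF genes listed on other chromosomes, 204 of them tested, had a median of -0.05 and an interquartile range of 0.54. Of these, 17 (8.33%) were lower and 11 (5.39%) higher by at least 1.5-fold, 28 (13.7%) in either direction. The 531 other genes of chromosome 19 that were tested had a median of -0.15 and a range of 0.65, and 128 of them (24.1%) lay past 1.5-fold, against 20 of the 167 zinc finger genes.

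**Figure D1:**
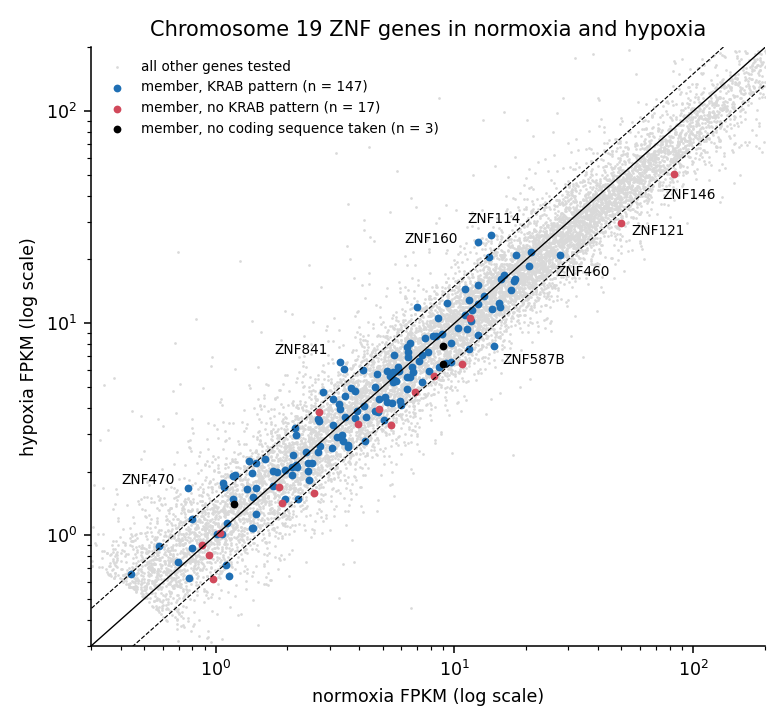
FPKM in normoxia (x axis, log scale) and hypoxia (y axis, log scale) of the 167 zinc finger genes tested, coloured by whether a KRAB pattern was found, over all other genes tested in grey, with each point 1 pooled value per condition. The solid line marks equality and the dashed lines 1.5-fold, and 20 members lie past the dashed lines on the scale with 0.1 added.

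By abundance, most members were weakly expressed. Their median mean FPKM was 4.38 against 9.23 for all genes, and 30 members (18.0%) reached a mean of 10 FPKM against 48.0% of all genes. ZNF146, whose protein consists almost wholly of fingers, was the most abundant, at 83.1 FPKM in normoxia against 50.6 in hypoxia (log2 difference -0.71). ZNF121 followed, with 50.0 FPKM in normoxia and 29.7 in hypoxia (-0.75). ZNF460 came next, with 27.8 and 21.1 FPKM (-0.39). These leading members were all lower in hypoxia.

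The next in order did not share a direction. ZNF845 was nearly level at 20.9 FPKM in normoxia and 21.8 in hypoxia (0.06), while ZNF114 had 14.2 and 26.2 FPKM (0.88). ZNF761 had 18.1 and 21.1 FPKM (0.22), ZNF468 20.5 and 18.7 (-0.13), and ZNF160 12.6 and 24.3 (0.94). ZNF211 had 14.0 FPKM in normoxia and 20.5 in hypoxia (0.54), and ZNF440 17.9 and 16.2 (-0.15). Of the 10 most abundant members, 5 were lower and 5 higher (3 and 7 with equal column sums, where ZNF468 and ZNF440 took the other sign), and together they held 25.4% of the members' summed FPKM in normoxia and 24.2% in hypoxia.

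The summed FPKM of the tested members was 1098 in normoxia and 1035 in hypoxia, a log2 ratio of -0.09. Without ZNF146 and ZNF121 the sums were 965.3 and 954.8, a ratio of -0.02, so these genes carried most of the lower total.

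Members were also divided into 3 groups of near-equal size by mean FPKM and set beside all other genes in the same FPKM range. In the least abundant group the median was 0.03 for 56 members and 0.11 for 2898 other genes. It was -0.09 for 55 members and 0.01 for 1741 other genes in the middle group, and -0.08 for 56 members and -0.12 for 5637 other genes in the most abundant group. The share past 1.5-fold was 14.3%, 7.27% and 14.3% in the low, middle and high groups of the members, and 26.7%, 22.3% and 18.2% of the other genes. The smaller share among members than among all other genes thus held in each FPKM range. It was not limited to chromosome 19. Among ZNF genes on other chromosomes the share was 15.5% in the low group and 11.1% in the high group. In the middle group it lay between these values. In the high group it was below that of the members, and in the low and middle groups above it. Across genes, Spearman's rho between log2 difference and mean FPKM was -0.13 for the 167 members and -0.28 for the 11939 other genes, a description over genes of the same pooled libraries.

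**Figure D2:**
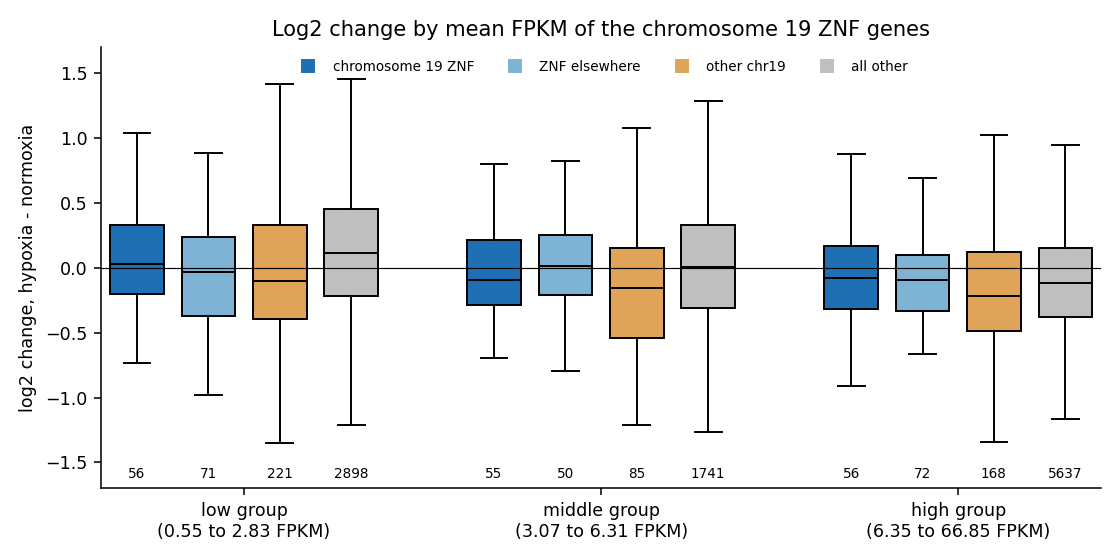
Log2 difference (y axis) in 3 ranges of mean FPKM (x axis), with boxes for quartiles, a line for the median and whiskers to the last value within 1.5 interquartile ranges, for chromosome 19 ZNF genes, ZNF genes elsewhere, other chromosome 19 genes and all other genes, with the number of genes below each box. The members' medians are 0.03, -0.09 and -0.08 from the low to the high range, and their boxes are narrower than those of all other genes in each range. The boxes of ZNF genes elsewhere are narrower still in the middle and high ranges.

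The genes higher in hypoxia were led by ZNF470, at 0.764 FPKM in normoxia against 1.68 in hypoxia (log2 difference 1.04). At these low values the difference was 0.60 with 1 in place of 0.1 added. ZNF841 had 3.32 and 6.58 FPKM (0.97), and ZNF160 and ZNF114, given above, were the only members among the 10 most abundant to be higher by at least 1.5-fold. ZNF836 had 3.45 FPKM in normoxia and 6.09 in hypoxia (0.80), and its neighbour ZNF616 had 7.0 and 11.9 (0.76). ZNF331, an imprinted gene, had 2.83 and 4.74 FPKM (0.73). The remaining genes past 1.5-fold were ZNF846 (0.67), ZNF577 (0.66), ZNF682 (0.65), ZNF563 (0.62) and ZNF792 (0.60), each between 1.07 and 1.38 FPKM in normoxia. With 1 in place of 0.1 added, ZNF846, ZNF577 and ZNF682 were at 0.42, 0.44 and 0.42, short of 1.5-fold.

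The lowest difference was that of ZNF587B, with 14.7 FPKM in normoxia and 7.78 in hypoxia (-0.91). ZNF473, also called ZFP100, takes part with the U7 particle in processing the 3′ ends of histone RNAs, and had 10.8 and 6.42 FPKM (-0.75). ZNF121 and ZNF146 are given above. ZNF30 had 1.14 FPKM in normoxia and 0.645 in hypoxia (-0.73), which was -0.38 with 1 added. ZNF787 had 5.44 and 3.33 FPKM (-0.69), ZNF576 2.58 and 1.59 (-0.67), and ZNF552, the member nearest to ZNF587B in sequence, 11.5 and 7.54 (-0.60). With 1 added they were at -0.57, -0.47 and -0.55, short of 1.5-fold. Just outside the 1.5-fold limit lay ZNF77, with 4.24 and 2.80 FPKM (-0.58), and ZNF784, with 0.978 and 0.624 (-0.57). The member nearest to no difference was ZNF627, with 8.90 FPKM in normoxia and 8.91 in hypoxia.

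**Figure D3:**
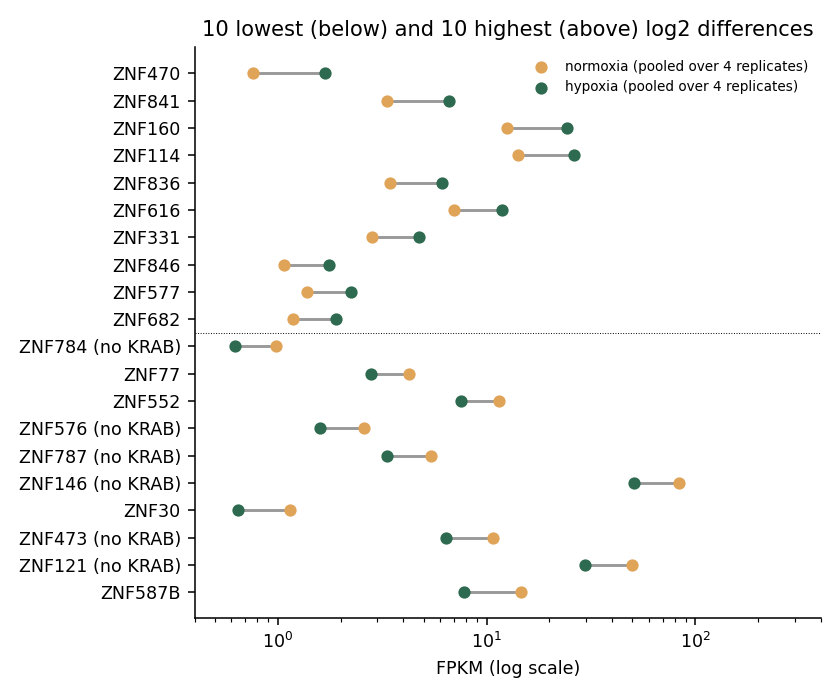
FPKM (x axis, log scale) in normoxia and hypoxia of the 10 members with the highest and the 10 with the lowest log2 difference, each point 1 value pooled over 4 replicates, with genes lacking a KRAB pattern marked. The abundant genes ZNF146 (83.1 to 50.6) and ZNF121 (50.0 to 29.7) stand in the lower part and ZNF160 (12.6 to 24.3) and ZNF114 (14.2 to 26.2) in the upper part.

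Of 12 tested members chosen for what they are known for, 3 lay past 1.5-fold, beside 21.2% of all genes tested. These were ZNF146, ZNF473 and ZNF331, given above. ZNF91, which silences SVA retrotransposons and had the most fingers of any member tested (32 pattern matches), had 6.40 FPKM in normoxia and 6.91 in hypoxia (0.11). ZNF611, which also binds SVA elements, had 4.74 and 5.77 (0.28). ZNF417 and ZNF587, near-identical genes known for repressing HERV-K proviruses, differed in sign, with 6.41 and 7.30 FPKM (0.18) for ZNF417 and 8.63 and 6.19 (-0.47) for ZNF587. ZNF274, which recruits SETDB1 to the 3′ ends of zinc finger genes, had 8.95 and 7.79 FPKM (-0.20). ZNF224, a repressor of the aldolase A gene, had 6.32 and 7.77 (0.29). ZNF350 (ZBRK1), a partner of BRCA1, had 1.61 and 2.29 (0.48), ZNF304 10.4 and 9.51 (-0.13), and ZNF283 5.05 and 3.50 (-0.52). With the columns scaled to equal sums, ZNF274 and ZNF304 took the other sign, at 0.03 and 0.10.

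By position, members less than 1 Mb apart were joined into clusters, which gave 17 clusters over the chromosome, 8 of them with at least 5 tested members and 150 tested members in all. Clusters are numbered from the start of the chromosome. Cluster 16 (chr19:52074530-54083523) had the highest median of the clusters with at least 5 tested members, 0.27 over 25. In it 16 were higher and 9 lower, where 56.4% of all genes were lower. It held 6 of the 12 members that were higher by at least 1.5-fold (ZNF577, ZNF841, ZNF616, ZNF836, ZNF160 and ZNF331). These were 24.0% of its tested members, beside 9.95% of all genes. It held none of the 8 members that were lower by as much. Its summed FPKM was 212 in normoxia and 237 in hypoxia. The lowest value in the cluster was ZNF649, at 6.0 and 4.14 FPKM (-0.52). Among clusters of that size, cluster 16 ranked highest under each alternative to the pseudocount, scaling and transcript choice and with a mean FPKM of at least 1. Without the FPKM limit, cluster 3 had the highest median, 0.31. The 5 tested genes within cluster 16 that are not members had a median of 0.93. Of these, 0 were lower and 3 were higher by at least 1.5-fold, beside 9.95% of all genes. Such genes had medians of 0.77 in cluster 3 (1 gene), -0.59 in cluster 4 (2) and -0.04 in cluster 10 (3). In clusters 13 (5 genes) and 17 (7) their medians were 0.16 and -0.32. Some genes that are not members share a locus entry with a member. In cluster 16 this holds for ZNF816-ZNF321P, with ZNF816 and ZNF321P, and for TPM3P9, with ZNF761. How reads were shared between such genes was not tested.

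Within cluster 16, ZNF841, ZNF616 and ZNF836 follow one another in the order of the members, all on the minus strand (chr19:52567718-52674896), and their summed FPKM was 13.8 in normoxia and 24.6 in hypoxia, a log2 ratio of 0.84. Adjoining them, ZNF432 had 3.68 and 4.98 FPKM (0.43) and ZNF766 16.1 and 16.9 (0.07), which made a run of 5 neighbours that were higher in hypoxia. On the other side of ZNF432, ZNF614 was lower, with 1.95 and 1.48 (-0.38). ZNF160 lay apart from that run, its nearest tested members being ZNF816 at 15.5 and 11.9 FPKM (-0.37) and ZNF845 at 20.9 and 21.8 (0.06). Runs of that length occurred elsewhere on the chromosome too. The longest were 7 lower members from ZNF675 to ZNF30 and 6 lower from ZNF574 to ZNF45. Other runs of 5 higher members went from ZNF846 to ZNF441 and from ZNF799 to ZNF490.

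Cluster 4 (chr19:11594241-12740676) was the other large cluster with a median above 0, at 0.17 over 22 tested members. It had 16 members higher and 6 lower, where 56.4% of all genes were lower. Its values lay in a narrow range from -0.19 for ZNF844 to 0.62 for ZNF563. Cluster 3 (chr19:8920381-9879410) had a median of 0.13 over 10 members, but its summed FPKM was 117 in normoxia and 101 in hypoxia because it holds ZNF121. In cluster 10 (chr19:36672961-38270230), which holds ZNF146, the median of 16 members was -0.10 and the sums were 124 and 89.6 FPKM.

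Cluster 17 (chr19:56088890-58992597), at the end of the long arm, was the largest, with 41 tested members and a median of -0.13. In it 26 members were lower, where 56.4% of all genes were. It held the extremes of both directions, ZNF470 (1.04) and ZNF587B (-0.91), and 3 of the members lower by at least 1.5-fold. In either direction, 4 of the 41 (9.76%) lay past 1.5-fold, beside 21.2% of all genes. ZNF552, ZNF587B and ZNF587 lie next to each other there and were all lower, at -0.60, -0.91 and -0.47. Cluster 1 (chr19:2819871-2944969), at the other end of the chromosome, had the lowest median of the clusters with at least 5 members, -0.30, which became -0.07 with columns scaled to equal sums. Its most abundant gene, ZNF57, had 14.4 and 11.7 FPKM (-0.30), and ZNF554 alone in it was higher, with 0.578 and 0.895 FPKM (0.55). Clusters 6 and 13 had medians of -0.07 over 13 members and -0.11 over 18. With equal column sums the medians of clusters 6, 10, 13 and 17 took the other sign, at 0.15, 0.12, 0.11 and 0.10.

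ZNF114 and ZNF473 each form a cluster of 1 gene and stood on opposite sides of 0. In the small clusters the most abundant members were ZNF557 (-0.33), ZNF333 (0.12), ZNF675 (-0.17), ZNF507 (-0.23), ZNF302 (-0.29), ZNF780A (0.05) and ZNF526 (-0.40), and in clusters 6 and 13 they were ZNF101 (0.16) and ZNF226 (-0.02).

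The log2 differences of neighbouring members were weakly correlated. Over the 150 pairs of neighbouring members within clusters, Pearson's r was 0.17 and Spearman's rho 0.16. Of the 150 pairs 78 had the same sign, which is near an even split. These pairs share libraries, and each gene enters up to a pair of them, so the values are descriptive.

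**Figure D4:**
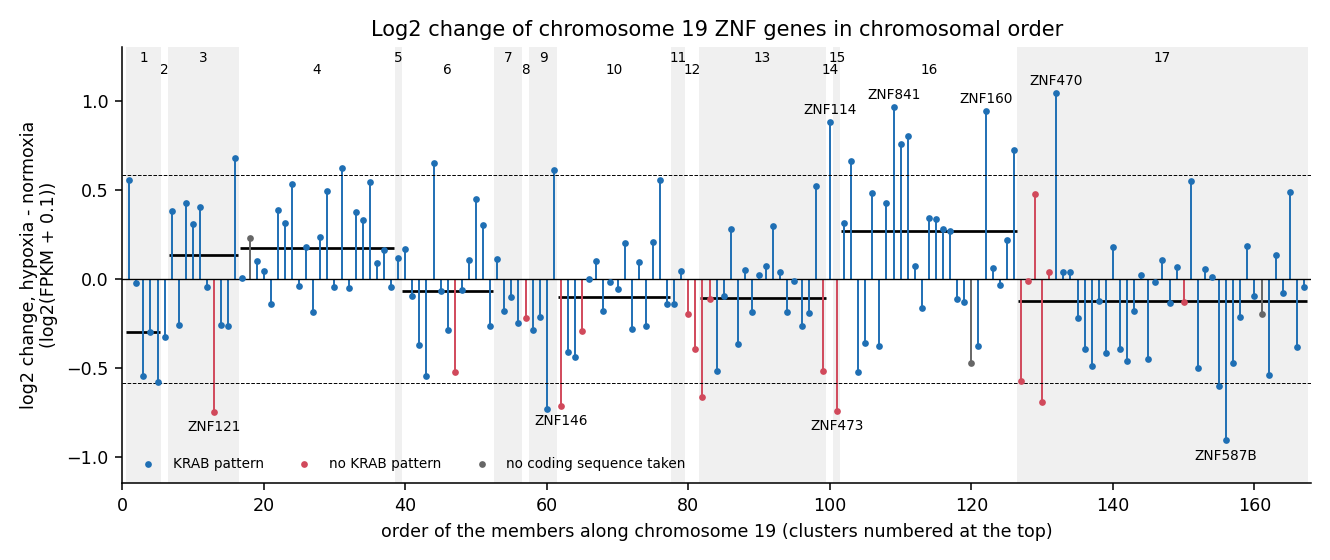
Log2 difference (y axis) of the 167 tested members in their order along chromosome 19 (x axis), with clusters shaded in alternation and numbered at the top, black bars for the medians of clusters with at least 5 tested members, and dashed lines at 1.5-fold. The median of cluster 16 is 0.27 and that of cluster 17 is -0.13, and genes with no KRAB pattern, in red, mostly point down.

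The promoters of ZNF841, ZNF616 and ZNF836 are shown because these neighbours were higher together. Each line gives the 250 bases before a RefSeq transcription start (for ZNF841 the farther upstream of its 2 starts), read on the minus strand of GRCh38.p14, with the letters ACGTG or GCGTG (or their reverse complements) in capitals. The former is the core of the element bound by hypoxia-inducible factors, and GCGTG is its other common form.
ZNF841, chr19:52095766-52096015: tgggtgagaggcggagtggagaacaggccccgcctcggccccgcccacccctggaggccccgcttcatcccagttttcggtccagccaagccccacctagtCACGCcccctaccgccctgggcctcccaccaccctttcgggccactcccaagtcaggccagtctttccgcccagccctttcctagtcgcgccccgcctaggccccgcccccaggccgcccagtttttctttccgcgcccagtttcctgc
ZNF616, chr19:52139939-52140188: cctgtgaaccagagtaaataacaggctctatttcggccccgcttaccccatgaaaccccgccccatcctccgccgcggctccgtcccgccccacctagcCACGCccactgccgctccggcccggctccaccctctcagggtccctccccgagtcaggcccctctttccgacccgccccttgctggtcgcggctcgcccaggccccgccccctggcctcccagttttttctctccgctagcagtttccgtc
ZNF836, chr19:52171622-52171871: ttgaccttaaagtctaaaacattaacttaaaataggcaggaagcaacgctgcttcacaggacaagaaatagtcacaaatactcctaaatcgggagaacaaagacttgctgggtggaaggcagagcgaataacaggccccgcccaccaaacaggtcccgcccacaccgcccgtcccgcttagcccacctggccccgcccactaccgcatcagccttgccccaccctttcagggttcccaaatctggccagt

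The windows of ZNF841 and ZNF616 hold 1 GCGTG match each and no ACGTG, and that of ZNF836 holds neither. Their GC contents were 69.6%, 68.4% and 54.0%. RefSeq promoter windows of 250 bases before and 50 after a start were found for 169 of the 193 members, 211 windows in all. ACGTG on either strand stood in 16.1% of them, against 21.4% of 35116 windows of all genes, and GCGTG in 46.4% against 36.5%. Both strings contain CG, and the members' windows held a median of 20 CG pairs against 14 in all windows. The part of this in the shares was not tested. In the 19 windows of 11 members that were higher by at least 1.5-fold, 4 held ACGTG and 11 GCGTG. In the 6 windows of 5 members that were lower by as much, 1 held ACGTG and 2 GCGTG. A match is a run of letters and not a bound site.

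Members in which no KRAB pattern was found were mostly lower in hypoxia. Coding sequences from hg19 were translated and searched for stretches typical of the KRAB domain, and 164 of the 189 members with a complete coding sequence held one. The 147 of these that were tested had a median log2 difference of -0.02, with 74 (50.3%) lower, beside 56.4% of all genes. By at least 1.5-fold, 3 (2.04%) were lower and 12 (8.16%) higher, beside 11.2% and 9.95% of all genes. The 17 tested members with no match had a median of -0.40. Of these, 15 (88.2%) were lower, 5 (29.4%) lower by at least 1.5-fold and 0 higher by at least 1.5-fold. All 12 members higher by at least 1.5-fold held the pattern, as did 147 of the 164 tested members with a coding sequence. Of the 10 members with the lowest differences, 6 did not hold it. The division by KRAB pattern was chosen after the data were seen.

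The members with no match were ZNF146, ZNF121, ZNF473, ZNF787, ZNF576 and ZNF784, given above, and 11 others. Among the latter, ZNF714 had 8.19 FPKM in normoxia and 5.66 in hypoxia (-0.52), ZNF180 6.83 and 4.73 (-0.52), ZNF526 1.90 and 1.42 (-0.40) and ZNF260, the nearest relative of ZNF146, 4.85 and 3.94 (-0.29). ZNF134, the most abundant of them, had 11.6 and 10.6 FPKM (-0.13). ZNF581 and ZNF444 were the exceptions, with 2.70 and 3.80 FPKM (0.48) and 0.876 and 0.900 (0.03). The summed FPKM was 197.7 in normoxia and 130.2 in hypoxia for the 17 members with no match, a log2 ratio of -0.60, and 881.7 and 889.4 for the 147 with the pattern, a ratio of 0.01.

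A missing match says only that these stretches were not found, and ZNF180, ZNF473 and ZNF714 have a diverged or partial KRAB sequence. Without those genes the median of the other 14 was -0.26. Of the 14, 12 (85.7%) were lower and 4 (28.6%) lower by at least 1.5-fold, beside 56.4% and 11.2% of all genes. Without ZNF146 and ZNF121 the median of 15 was -0.29. With the columns scaled to equal sums the median of all 17 was -0.19, beside 0.21 for members with the pattern. On that scale 11 of the 17 were lower, beside 36.3% of all genes. Coding GC content was high in many of the members with no match, with a median of 62.1% against 42.3%. Among them, the 9 with a GC content of at least 60% had a median of -0.20 and the 8 below 60% had -0.52. The part of GC content in the difference was not tested.

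Among ZNF genes of other chromosomes the same groups had medians close to each other. There 91 tested genes with a KRAB pattern had a median of -0.06, with 8 (8.79%) lower and 2 (2.2%) higher by at least 1.5-fold. The 100 with zinc fingers but no such pattern had a median of -0.03, with 9 (9.0%) lower and 7 (7.0%) higher. Among all genes 11.2% were lower and 9.95% higher by as much. Whether chromosome 19 differs from the others in this was not tested.

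**Figure D5:**
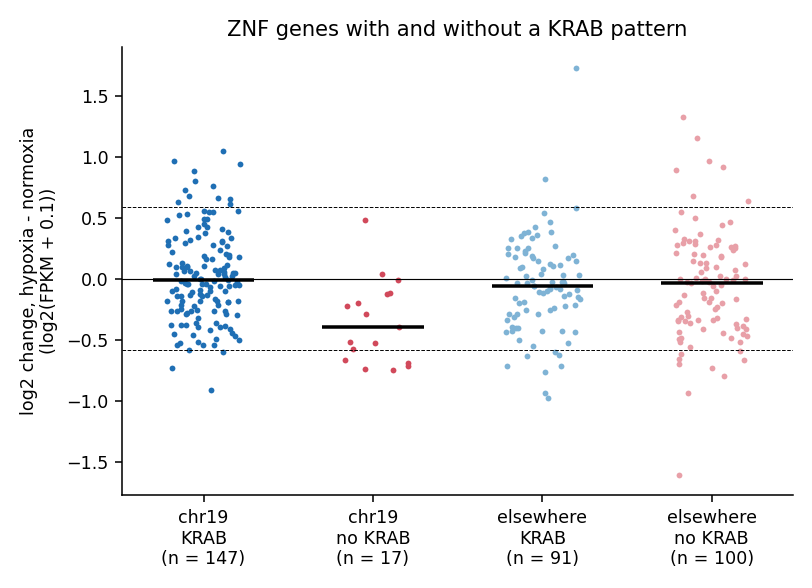
Log2 difference (y axis) of tested ZNF genes on chromosome 19 and elsewhere, each divided by whether a KRAB pattern was found (x axis), with 1 point per gene, black bars for medians and dashed lines at 1.5-fold. Chromosome 19 genes with no pattern have a median of -0.40, and the other 3 groups lie between -0.06 and -0.02.

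Other features of the proteins were weakly related to the differences. Tested members held a median of 12 matches to the C2H2 finger pattern, from 1 to 32. Across the 164 members with a coding sequence, Spearman's rho with the log2 difference was 0.20 for the number of fingers, 0.18 for protein length and -0.14 for coding GC content. Identity to the nearest other member, known for 150 tested genes, had a rho of -0.02. The 10 members with the highest differences had a median of 14.5 fingers and the 10 with the lowest 9.5.

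Duplicate genes make the FPKM of some members uncertain, since short reads from near-identical stretches can be assigned to either copy. The nearest member by coding sequence was at least 90% identical for 24 genes, and 11 such pairs had both genes tested, 7 of them with the same sign. ZNF417 and ZNF587, the closest pair at 99.1%, differed by 0.66 in log2 difference. ZNF600 and ZNF611 (94.2%) were alike at 0.27 and 0.28, as were ZNF561 and ZNF562 (91.0%) at -0.26 and -0.27 and ZNF443 and ZNF799 (93.5%) at 0.33 and 0.37. ZNF440 and ZNF69 (94.5%) were apart, at -0.15 and 0.39. ZNF616, ZNF836 and ZNF841 are less alike as whole genes, since the nearest relative of ZNF616 was ZNF841 at 77.8% identity and that of ZNF836 was ZNF841 at 83.9%. Some members also share a locus entry in the table with another gene, as ZNF146 does with ZNF565 (2.47 and 1.83 FPKM, -0.41) and ZNF816 with ZNF321P (8.93 and 6.40 FPKM, -0.47). How reads were shared between such genes was not tested.

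Transcript shares within a gene were mostly kept. Of the tested members, 113 were listed with 1 transcript and 54 with several, up to 11 for ZNF302. The median of the largest shift in share per gene was 5.03 percentage points, 7 genes exceeded 10 points and 0 exceeded 20. The leading transcript changed in 3 genes, ZNF181, ZNF507 and ZNF550. In ZNF160 all but the least abundant transcript were higher, the leading one NM_033288 at 10.6 and 20.1 FPKM with 83.9% and 82.5% of the gene's total. In ZNF146 all 3 transcripts were lower, from -0.30 for NM_001099639 to -1.11 for NM_001099638, and the leading NM_007145 had 55.2 and 34.7 FPKM.

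The largest shifts, chosen after the values were seen, were in genes whose totals moved little or were low. In ZNF155 the share of NM_001260487 was 33.0% in normoxia and 14.9% in hypoxia, at 0.468 and 0.162 FPKM. In ZNF317 NM_001190791 had 2.88 and 1.34 FPKM while NM_020933 stayed at 6.66 and 6.65. In ZNF227 NM_001289168 had 0.477 and 1.63 FPKM, and its share was 4.22% and 17.4%. Among the 41 genes with several transcripts past the FPKM limit, 13 had transcripts of opposite sign. These counts of shifts, leading transcripts and signs were made for members only. No share over all genes stands beside them, so whether members differ from other genes here was not tested.

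The proteins that KRAB domains recruit were described with the same table. Of 30 genes of this co-repressor machinery, all of which passed the FPKM limit, 20 (66.7%) were lower in hypoxia, beside 56.4% of all genes. Their median was -0.17, and it became 0.05 with equal column sums and -0.03 after quantile normalization. TRIM28, which KRAB domains bind directly, had 30.8 FPKM in normoxia and 25.8 in hypoxia (-0.25). All 6 genes of the group of histone H3 lysine 9 methyltransferases and their partner were lower, with a median of -0.40, where 56.4% of all genes were lower. With equal column sums 4 of the 6 were lower, beside 36.3% of all genes, and SETDB1 and EHMT1 took the other sign. Among these genes, SETDB1 had 16.7 and 15.6 FPKM (-0.11), and its partner ATF7IP 13.0 and 7.73 (-0.75). SUV39H1 had 4.67 and 3.12 FPKM (-0.57) and SUV39H2 24.6 and 17.9 (-0.46).

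The HP1 genes, whose proteins bind methylated lysine 9, were mixed, with CBX3 at 319 and 263 FPKM (-0.28), CBX1 at 91.9 and 95.7 (0.06) and CBX5 at 27.5 and 36.9 (0.42). MTA2, a subunit of the NuRD deacetylase complex, had 108 and 63.4 FPKM (-0.77), whereas CHD3 of the same complex had 16.9 and 23.8 (0.49). DNMT3A was the only gene of the list higher by at least 1.5-fold, with 1.17 and 1.95 FPKM (0.69), and DNMT1 was level at 14.7 and 14.7. MTA2 and ATF7IP were the only ones lower by as much. In all, 3 of the 30 genes (10.0%) lay past 1.5-fold, beside 21.2% of all genes.

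Of 10 markers of squamous or general epithelium 9 were listed, and KRT14 was not analysed here. KRT5 had 398 FPKM in normoxia and 442 in hypoxia, TP63 42.8 and 44.6, EPCAM 317 and 233, DSG3 16.4 and 12.8, KRT6A 5.10 and 3.26, and KRT16, the lowest, 0.262 and 0.317. Of 10 markers of other cell types 3 were listed, the highest being CDH5 at 4.78 and 2.83 FPKM. Genes known to respond to low oxygen followed the labels, with CA9 at 0.694 FPKM in normoxia and 21.6 in hypoxia and NDRG1 at 6.19 and 300.0.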

How the data were processed

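RNA-seq of SQ20B cells in normoxia and hypoxia was analysed from the authors' table. Per the submitters' processing notes and the study's methods, reads of poly(A)-selected stranded libraries were aligned with STAR 2.3.0.1 to hg19 and quantified with Cufflinks 2.1.1 on RefSeq transcripts. The authors computed and deposited FPKM as 1 value per condition, pooled over 4 replicates. FPKM divides by transcript length and by mapped reads, so a shift in a few abundant transcripts moves all others. The table's columns of log2 fold changes, test statistics, p-values and q-values hold the authors' own comparisons and were not used. Read counts per gene and sample were not analysed here.

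RefSeq identifiers were paired with symbols through the annotation of GRCh38.p14, used for names only (24293 of 24812 transcripts, 97.9%). Transcript FPKM was summed per gene, and log2(FPKM + 0.1) in normoxia was subtracted from that in hypoxia for genes whose mean FPKM reached 0.5. The planned description without a test was followed, since each condition is 1 value, and a 1.5-fold limit was used in place of a call. Members and lists were chosen with earlier results of these data known. The genes named are the 10 most abundant, the 10 highest and 10 lowest differences, the most abundant of each position cluster, the member nearest 0 and members named for what they are known for, of which ZNF93, ZNF382 and ZNF568 were not analysed here and ZNF671 and ZNF154 were below the limit. Others were named after their values were seen.

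Coding sequences came from the GENCODE annotation of GRCh37, which has the coordinates of hg19. Fingers were found as a pair of cysteines and a pair of histidines at C2H2 spacing, and KRAB domains by stretches typical of boxes A. Members were aligned with BLAST 2.17.0 over at least 50% of the coding sequence. Promoter windows are RefSeq's for GRCh38.p14. Alternatives to the added value, FPKM limit, scaling, fold, transcript choice, noncoding members and cluster gap were tried. The calculation was tested on simulated data. Software was biopython 1.88, matplotlib 3.10.9, pandas 2.3.3, numpy 2.4.6 and scipy 1.17.1 under Python 3.11.15.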

Additional observations from a re-analysis of the deposited data

How the results depend on the processing

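No paired analysis was possible because each condition has 1 pooled value, and for the same reason no replicate could be left out. Scaling the columns to equal sums moved the most values. It gave a median of 0.18 for the members, 1 member lower and 29 higher by at least 1.5-fold, 30.5% of members lower, a log2 ratio of 0.14 for the summed FPKM, cluster medians from -0.07 to 0.49, medians of 0.24 and 0.15 in the least and most abundant groups, 0.21 with and -0.19 without a KRAB pattern, and 0.05 for the co-repressors. The share of all genes past the limit was then 4.99% lower and 18.6% higher. Centring on the median of all genes gave 46.1% of members lower, and it was not run for the summed FPKM. Quantile normalization gave -0.10 in the least abundant group and -0.03 for the co-repressors. With 1 added to each FPKM, 4 members were lower and 7 higher, beside 8.52% and 5.94% of all genes, and the median without a KRAB pattern was -0.26. Without a filter that median was -0.23. Where the mean FPKM had to reach 1, the lowest cluster median was -0.13, in cluster 17, since cluster 1 then had fewer members. At 1.2-fold, 45 members were lower and 40 higher, beside 33.0% and 23.8% of all genes, and at 2-fold 0 and 1, beside 2.62% and 3.21%. Of the remaining values of main results, 108 moved by less than their limit. A change of sign was counted only where the main value reached 1.5-fold, which no median, difference or sum did, so none could be counted. With equal column sums, the medians of the members, their most abundant group, those with a KRAB pattern and the co-repressors changed sign. The log2 ratio of the summed FPKM did too. The KRAB division and its alternatives were chosen after the data were seen. Read counts behind single values were not analysed here, so no limit from depth is given.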
